A study of Mus musculus with 14 samples.

Results

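The integrin and laminin subunits were followed in mammary epithelial cells (MECs) that overexpress the deubiquitinase Usp22. Members were the protein-coding genes whose symbols name an integrin alpha or beta chain or a laminin alpha, beta or gamma chain. In the annotation 37 genes met this rule, of which 36 were among the 16124 genes of the expression table (25 integrin and 11 laminin genes) and Itgad was not. Messenger RNA was sequenced from 7 wild-type (WT) and 7 Usp22 OE/OE females, 1 library per mouse, and the mice formed 7 littermate pairs numbered 1, 3, 4, 5, 6, 7 and 8. All 14 mice were 3.5 months old. The OE/OE mice carried 2 copies of a Usp22 cDNA with FLAG and MYC tags in the ROSA26 locus, under the CAGGS promoter, from which a ZP3-Cre transgene had removed a stop cassette. ZP3-Cre acts in the oocyte, so that the allele was active in all tissues, stroma and leukocytes included. The cells came from organoids freed by collagenase and hyaluronidase, enriched by pulse centrifugation and dissociated with trypsin, a preparation without a marker-based sort.

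Integrins are receptors made of 1 alpha and 1 beta chain that tie the cytoskeleton to the extracellular matrix or to other cells. Laminins are cross-shaped trimers of 1 alpha, 1 beta and 1 gamma chain, and they form the sheet of the basement membrane on which mammary ducts rest. In the mammary gland the basal myoepithelial cells contact laminin through integrins built on Itgb1 and through the hemidesmosome receptor of Itga6 and Itgb4, while Itgb2 and its alpha partners are restricted to leukocytes. The members were therefore described by the cells best known for them, as 11 epithelial, 6 broadly expressed, 11 stromal and vascular, and 8 leukocyte and platelet subunits. These classes overlap in life, since Itgb3 also marks luminal progenitors and platelets, and Itga9 and Itga8 occur in contractile epithelium as well as in stroma.

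Between 20125106 and 41835978 fragments per library were counted on genes. Usp22, the overexpressed gene, ranged from 3500 to 5380 normalized counts in WT and from 74948 to 144288 in OE/OE, so the libraries matched their labels. All markers in the lists for epithelium, leukocytes, fibroblasts, endothelium and adipocytes were above 0 in every library. The summed markers of epithelium lay between 302645 and 512422 normalized counts in WT and between 325559 and 604880 in OE/OE. Those of leukocytes lay between 6741 and 12870 in WT and between 7282 and 9549 in OE/OE, a small amount beside the epithelial sums. Stromal sums were larger. Fibroblast markers summed to between 91004 and 182931 in WT and between 59827 and 134657 in OE/OE. Endothelial markers summed to between 54370 and 82130 in WT and between 19749 and 114651 in OE/OE. OE/OE pair 4 stood apart, as the lowest of the 7 OE/OE libraries in 19 of 36 members, as did its WT littermate, lowest of the 7 WT libraries in 14.

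Levels were taken per kilobase of exon, over the merged exons of all annotated transcripts of a gene. Genes with exons little used in these cells can thus come out too low, so the scale compares genes only roughly. On it Itgb1, the beta chain shared by most matrix receptors, was the highest member. Its level was 5538 ± 342 per kb in WT and 5755 ± 501 per kb in OE/OE (normalized counts, SD over 7 mice). Itga6, its partner in laminin receptors, followed at 2377 ± 515 per kb in WT, ahead of Lamb2 at 2128 ± 227 and Lama5 at 1758 ± 931 (SD, n = 7 each). The SD ranges of Itga6, Lamb2 and Lama5 overlapped. That of Itga3 at 1501 ± 280 overlapped the range of Lama5 but not those of Itga6 and Lamb2. Itgb1 lay above all of them by several SDs. At the other end stood Itga10 at 13.0 ± 3.58 and Itgam at 8.54 ± 2.15 per kb. Among the leukocyte subunits Itgax at 110 ± 34.2 and Itgb2 at 107 ± 31.5 per kb were the highest, both far below Itga6, Itga3 and Itgb4 and close to Itgb8 at 117 ± 20.8. Values for Itgam and Itga10 can be too low, because 68.7% and 33.5% of their exon bases are shared with another annotated gene on the same strand, and fragments there may be left unassigned in counting.

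**Figure D1:**
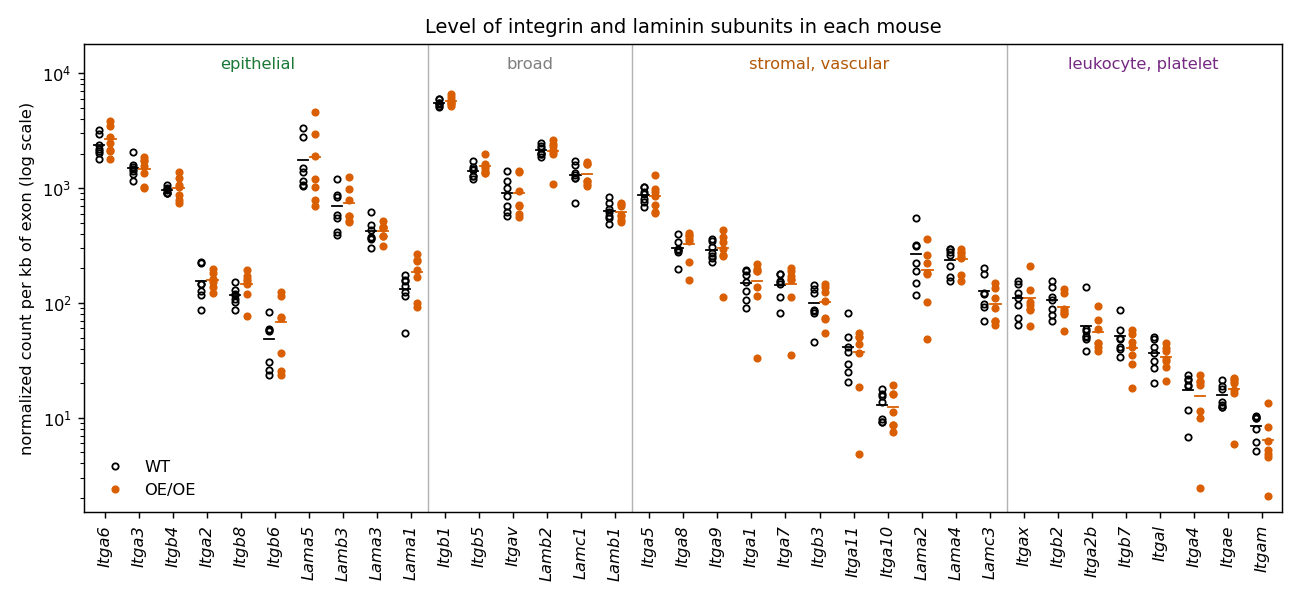
Normalized counts per kb of exon (log scale) of integrin and laminin subunits in each of 7 WT (open circles) and 7 OE/OE (filled circles) mice, with short bars at the group means, in 4 classes. Itgb1 was highest at 5538 per kb in WT and Itgam lowest at 8.54, and the circles of WT and OE/OE overlapped for every subunit drawn.

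The make-up of each chain type was described by the share of each chain in its per-kb signal. Of the per-kb signal of the 8 beta integrins in WT, Itgb1 took 66.4%, Itgb5 17.0% and Itgb4 11.5%, and the same 3 chains took 65.8%, 17.6% and 11.5% in OE/OE. Among 17 alpha integrins Itga6 held 33.9% ± 2.21 in WT and 36.4% ± 3.19 in OE/OE (SD over 7 mice), with a higher share in OE/OE in 6 of 7 pairs. Itga3, the other laminin receptor chain of epithelium, held 21.6% and 20.3%. Itgav, which pairs with Itgb5, Itgb6 and Itgb8, and Itga5, the fibronectin receptor chain, each held 12.6% in WT. These shares describe RNA of a mixed preparation, so they do not show which chains were made in the same cells and could pair. The amounts of protein were not measured in these data.

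Lama5 dominated the laminin alpha chains, with 60.4% ± 7.70 of their per-kb signal in WT and 58.7% ± 12.9 in OE/OE (SD over 7 mice). Lama3, the alpha chain of the anchoring laminin of epithelia, came next on this scale at 16.3% in WT and 17.4% in OE/OE. The merged exons span 10745 bases for Lama3 and 16338 for Lama2, so the order of these chains can depend on the length used. Lama2, the alpha chain of muscle and stromal basement membranes, held 9.17% ± 2.28 in WT and 6.82% ± 2.48 in OE/OE, lower in 6 of 7 pairs. Its own count was lower in 5. The shares of Itga5, Itga4, Itgam, Itgb7 and Lamc3 were also lower, and that of Itgb8 higher, in 6 of 7 pairs. No test of shares was made. Lamb2 made up 61.8% of the beta chains in WT and 60.1% in OE/OE, a difference within the SD of WT.

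The comparison of OE/OE with WT asked whether Usp22 overexpression changes the receptors and ligands of epithelial adhesion. It was made within littermate pairs by limma on log2(normalized count + 1), with the pair as a block and a threshold of 0.05 on the unadjusted p, which 3.81% of all genes met. Of the 36 members 2 met it, which is close to that background. Itgb8 was higher (1.95% of all genes were called higher) and Lama2 was lower (1.85% of all genes were called lower). Neither passed Benjamini-Hochberg adjustment over all genes (limma adjusted p = 1.00 for both), and of the 16124 genes only 2 (0.0124%) did. No member moved the same way in all 7 pairs (1.51% of all genes did), and 4 moved the same way in 6 pairs (14.1% of all genes in at least 6). Those were Itgb8 and Itgb5, higher in OE/OE in 6 pairs, and Itga4 and Lamc3, lower in 6. No member had groups that did not overlap (0.0434% of all genes). By the exact two-sided sign-flip test of the pair ratios, 1 member was under 0.05, Itgb8, against 4.38% of all genes.

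Limma's estimates of the log2 fold change ran from -0.55 for Itgam to 0.46 for Lama1, with a median of -0.02 over the 36 members and of -0.00 over all genes. For 20 of 36 members the 95% interval lay within 0.5 on either side of 0, and for 31 within 1, so that a change of 2-fold in either direction lay outside the interval for most subunits. Over all genes 9875 and 14607 of 16124 had intervals that narrow. The widest intervals belonged to Itga11, Itgb6 and Lama1, whose log2 ratios of OE/OE to WT had the largest SDs over the pairs (1.13, 1.10 and 1.03).

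**Figure D2:**
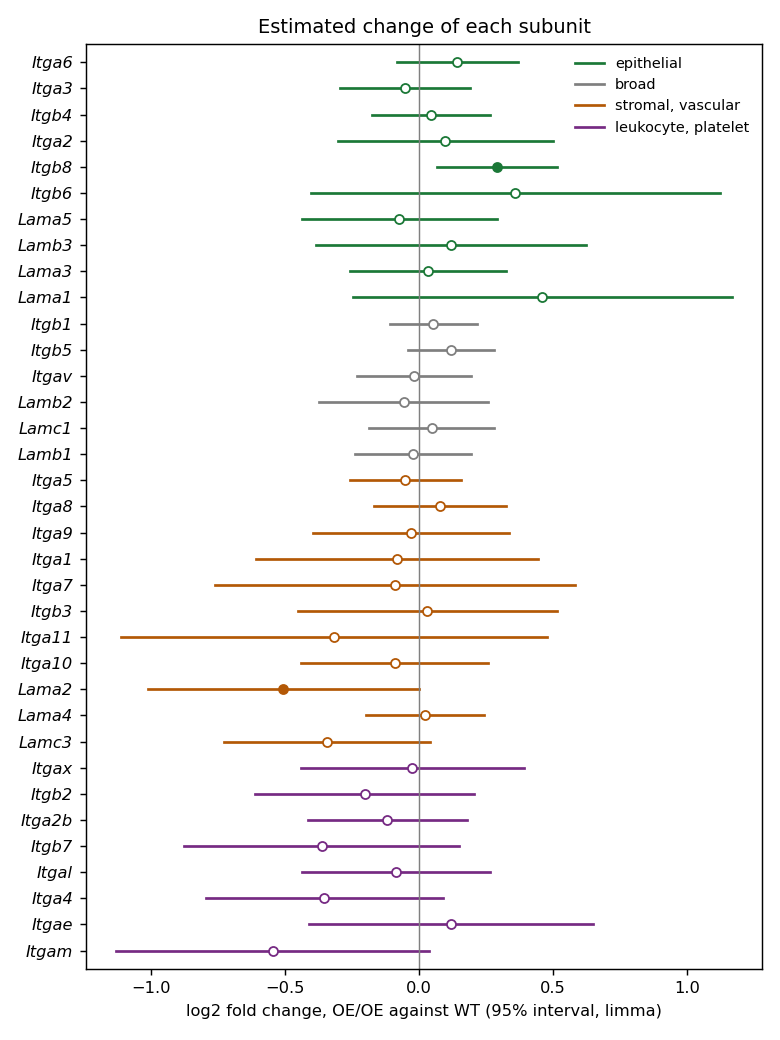
Log2 fold change (OE/OE against WT, limma with the pair as a block) of integrin and laminin subunits, each with its 95% interval, coloured by class; filled circles mark the 2 members with an unadjusted p of 0.05 or less. Itgb8 lay at 0.29 and Lama2 at -0.51, and the intervals of the others drawn crossed 0.

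Among the 6 epithelial integrins, Itgb8, which joins Itgav in a receptor that releases TGF-beta from its latent complex, was the one called. The gene (ENSMUSG00000025321.14) lies on the minus strand of chromosome 12, from 119158022 to 119238802 in mm10, with 14 exons after merging its transcripts, and shares no exon bases with another gene. Its normalized counts ranged from 966 to 1687 in WT (median 1290) and from 851 to 2150 in OE/OE (median 1718). The groups overlapped, and within pairs OE/OE was above WT in every pair except pair 4, by between 0.13 and 0.64 on the log2 scale. The estimated log2 fold change was 0.29 (SE 0.10, 95% interval 0.07 to 0.51), or 1.22-fold, with an unadjusted limma p of 0.0167 and an exact sign-flip p of 0.0469. The call was lost without pair 6 (estimate 0.23), without pair 8 (0.24) and without the block (0.29, a value that the block does not change). Without pair 4 the estimate was 0.37, and without pairs 1 and 4, a choice made after seeing the data, it was 0.42.

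In absolute terms Itgb8 remained a minor chain. It made up 1.40% ± 0.23 of the per-kb signal of the beta integrins in WT and 1.66% ± 0.39 in OE/OE (SD over 7 mice). The epithelial marker list was higher in OE/OE in 6 of 7 pairs, with 1 of its 10 genes called higher (Cldn7, a tight junction protein, log2 fold change 0.35). Its exception was pair 8 (mean log2 difference -0.14), where Itgb8 was higher by 0.55. In pair 4, the exception of Itgb8 (-0.18), the list was higher by 0.12. The part of epithelial content in the Itgb8 difference was not tested. In such bulk libraries the number of cells of a type and the RNA of a gene per cell cannot be told apart. With the basal marker score as a covariate Itgb8 kept its call at a log2 fold change of 0.32, and with the fibroblast score it did not, at 0.30.

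The promoter sequences of the members with the 3 smallest p values, Itgb8, Lama2 and Itgam, are shown, of which Itgam did not meet the threshold. Promoters were taken from RefSeq (GRCm38.p6), from 250 bases before to 50 after the annotated start, and 23 of the 36 members had one. Both strands were searched for the core site of PU.1 (GAGGAA), the master factor of myeloid cells, for the AP-1 site (TGANTCA) and for the GC box (GGGCGG), and matches stand in capitals in the 5′ to 3′ sequences below.
Itgb8, chr12:119238227-119238526, minus strand: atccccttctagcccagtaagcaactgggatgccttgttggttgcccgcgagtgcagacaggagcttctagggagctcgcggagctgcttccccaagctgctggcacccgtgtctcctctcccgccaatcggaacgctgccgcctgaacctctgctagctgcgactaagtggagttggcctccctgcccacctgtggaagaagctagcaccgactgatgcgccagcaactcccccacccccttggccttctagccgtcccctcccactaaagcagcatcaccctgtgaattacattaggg
Lama2, chr10:27616893-27617192, minus strand: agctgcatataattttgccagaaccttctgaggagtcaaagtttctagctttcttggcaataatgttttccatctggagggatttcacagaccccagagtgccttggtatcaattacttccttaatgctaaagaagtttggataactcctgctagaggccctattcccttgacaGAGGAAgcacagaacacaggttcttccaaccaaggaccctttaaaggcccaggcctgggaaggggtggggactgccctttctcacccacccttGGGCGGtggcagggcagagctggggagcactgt
Itgam, chr7:128062390-128062689, plus strand: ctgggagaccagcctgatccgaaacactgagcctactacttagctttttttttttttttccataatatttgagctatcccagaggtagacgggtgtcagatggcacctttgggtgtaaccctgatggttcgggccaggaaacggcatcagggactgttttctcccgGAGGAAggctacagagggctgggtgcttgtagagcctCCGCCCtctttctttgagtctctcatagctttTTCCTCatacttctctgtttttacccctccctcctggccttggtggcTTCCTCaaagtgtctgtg
The window of Itgam held 3 matches to the PU.1 core and 1 GC box, that of Lama2 1 of each, and that of Itgb8 none of the 3 motifs, and no matches overlapped. The RefSeq start used for Lama2 lay 2816 bases, and that for Itgb8 526 bases, from the outermost start in GENCODE, so other starts of both genes fall outside these windows. Over the 23 members, 12 held a PU.1 core against 28.3% of 32851 promoters in the table, 2 an AP-1 site against 7.81%, and 11 a GC box against 35.7%. The PU.1 core occurred in 3 of 5 leukocyte and platelet promoters (Itgam, Itga2b and Itgb7) and in 4 of 5 promoters of broad subunits. A match describes letters only and does not show binding.

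Itga6 and Itgb4, the pair of the hemidesmosome, which anchors epithelium to laminin, came out close to WT. Itga6 ranged from 16122 to 28741 normalized counts in WT (median 19658) and from 16158 to 34897 in OE/OE (median 22182), with overlapping groups and higher values in OE/OE in 5 of 7 pairs (log2 fold change 0.14, SE 0.10, unadjusted limma p = 0.186, exact sign-flip p = 0.188). Its highest libraries in either genotype were those of pairs 5 and 7. Differences between pairs took 84.9% of the sum of squares of Itga6 on the log2 scale, where the median of all genes was 73.9%. Itgb4 lay between 6300 and 7525 in WT (median 6748), the narrowest range of any epithelial member with a coefficient of variation of 6.65%, and between 5243 and 9772 in OE/OE (median 7104). Its estimate was 0.04 (95% interval -0.18 to 0.26), and OE/OE was higher in 4 pairs and lower in 3. The WT values of Itgb4 all fell inside the OE/OE range.

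Itga3, which with Itgb1 forms another laminin receptor of epithelium, ranged from 6547 to 11694 in WT (median 8389) and from 5764 to 10597 in OE/OE (median 8933). Its groups overlapped almost fully and its log2 fold change was -0.05 (95% interval -0.30 to 0.19). Of the remaining epithelial integrins, Itga2, a collagen receptor chain, had an estimate of 0.10 (95% interval -0.30 to 0.50). Itgb6, an epithelial partner of Itgav, had one of 0.36 with an interval from -0.40 to 1.12. The pair ratios of Itgb6 had the largest SD of the epithelial integrins, 1.10 (log2): OE/OE pair 7 had 820 normalized counts against 169 in its WT littermate, whereas OE/OE pair 1 had 259 against 595.

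Lama3 and Lamb3 are chains of the anchoring laminin that the hemidesmosome binds. Lamb3 ranged from 2563 to 7890 in WT (median 3845) and from 3355 to 8187 in OE/OE (median 3814), with an estimate of 0.12 (95% interval -0.39 to 0.62). Lama3 ranged from 3249 to 6662 in WT (median 4000) and from 3342 to 5609 in OE/OE (median 4843), with an estimate of 0.03 (95% interval -0.26 to 0.32). Both chains thus overlapped between genotypes.

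Lama5, the main laminin alpha chain of the gland, differed more between litters than between genotypes. In WT it had 31798 and 38298 normalized counts in pairs 5 and 7, and between 11912 and 17215 in the other 5 mice. In OE/OE it had 51897 and 33846 in the same pairs, and between 7954 and 21553 in the other 5. The mice of pairs 5 and 7 were the 2 highest of each genotype, and pairs took 91.7% of the sum of squares of Lama5. Its log2 fold change was -0.07 (95% interval -0.44 to 0.29), with 3 pairs higher and 4 lower. Lama1, the alpha chain of embryonic laminin, had the largest positive estimate, 0.46 (95% interval -0.25 to 1.16), which leaned on pair 4, where it was 2605 in OE/OE and 525 in WT. Without pair 4 the estimate was 0.15, below those of Itgb8 (0.37) and Itgb6 (0.36).

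**Figure D3:**
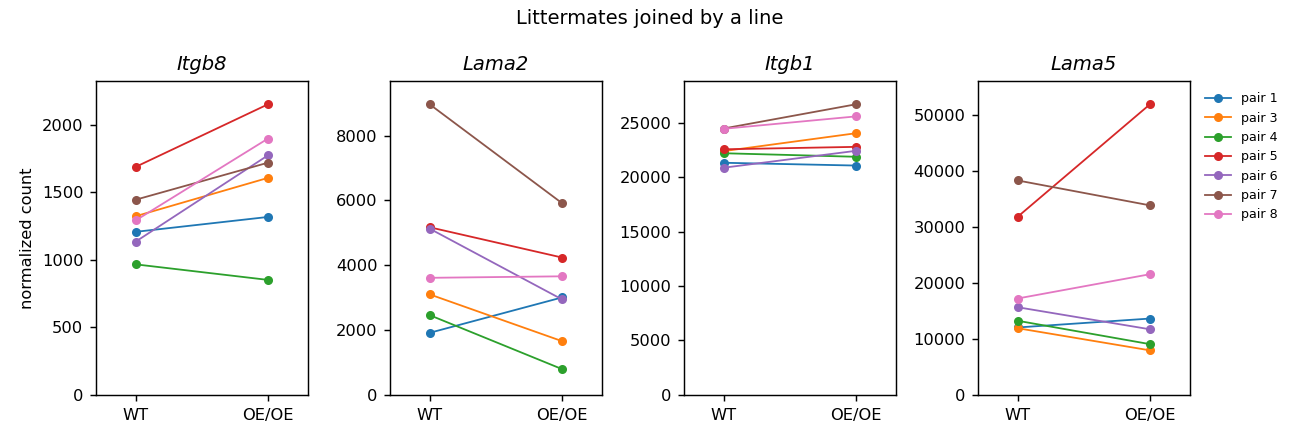
Normalized counts of Itgb8, Lama2, Itgb1 and Lama5 in the WT and OE/OE mouse of each of 7 pairs, joined by a line and coloured by pair; every axis starts at 0. Itgb8 climbed in 6 of 7 pairs and Lama2 dropped in 5, while the Lama5 lines of pairs 5 and 7 lay far above the rest in both genotypes.

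Over the 11 epithelial subunits 9 estimates were above 0 and 2 below, with a median of 0.12. By class no test was made, and the direction was not held in single litters, since 3 of 11 were higher in pair 1 (median -0.63) and 11 of 11 in pair 8 (median 0.35). All 36 members together were higher in 34 cases in pair 8 (median 0.27), where the median of all genes was 0.02. With the adipocyte score as a covariate the epithelial split became 6 above and 5 below, with the fibroblast score 7 and 4, and without pair 4 also 7 and 4.

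The intervals of all 6 broad subunits lay within 0.5 of 0. Itgb1 ranged from 20860 to 24460 normalized counts in WT (median 22384) and from 21059 to 26685 in OE/OE (median 22776), and its ranges overlapped over most of their length. Its estimate was 0.05 (95% interval -0.11 to 0.22), and no pair differed by more than 0.13 on the log2 scale. Lamc1, the gamma chain of most basement membrane laminins, ranged from 6191 to 14228 in WT (median 10703) and from 8611 to 14051 in OE/OE (median 9539), at 0.05 (95% interval -0.18 to 0.28). Itgb5, a beta partner of Itgav, had an estimate of 0.12 (95% interval -0.04 to 0.28) and was higher in 6 of 7 pairs. It met the threshold without pair 4. Itgav itself had the largest pair share of the 36 members, 94.2% of its sum of squares, and an estimate of -0.02, which turned to 0.00 with median centring, a rescaling that moved every estimate by 0.02. The estimates of Lamb1 and Lamb2 were -0.02 and -0.06, and that of Lamb2 was 0.07 without pair 4.

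Lama2 (ENSMUSG00000019899.16, minus strand of chromosome 10, 26980036 to 27619758 in mm10) was the only stromal subunit called. It has 66 merged exons, of which 3.86% of the bases are shared with Gm48084 on the opposite strand. Its normalized counts ranged from 1915 to 8966 in WT (median 3612.1) and from 797 to 5916 in OE/OE (median 3007). The groups overlapped widely, and OE/OE was below WT in 5 pairs, level in pair 8 (3659 against 3612.1) and above it in pair 1 (3007 against 1915). The log2 fold change was -0.51 (SE 0.23, 95% interval -1.01 to -0.00), or 0.704 of WT, with an unadjusted limma p of 0.0496 and an exact sign-flip p of 0.125. This call sat at the threshold. It was lost without any of pairs 3, 4, 5, 6 and 7 (estimates from -0.54 to -0.32, the latter without pair 4), with median centring (-0.49), with limma without trend and without the block (both -0.51). Without pair 1 the estimate was -0.70.

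Some markers of stromal cells were lower in OE/OE as well. Of 10 fibroblast markers 3 were called lower (Lum -0.53, Pdgfra -0.40 and Thy1 -0.48, log2 fold changes) and none higher, where 1.85% of all genes were called lower. Their summed level was 91004 to 182931 normalized counts in WT and 59827 to 134657 in OE/OE. No endothelial marker of 10 was called in either direction. Of 10 adipocyte markers 4 were called lower (Adipoq, Plin1, Cidec and Cfd, from -1.33 to -1.30), while the other 6 were not called and ranged from -0.56 for Lep to 0.20 for Lipe. All 10 summed to 17548 to 39755 in WT and 14815 to 37067 in OE/OE. With the fibroblast score as a covariate the Lama2 estimate was -0.03, and with the adipocyte score it was -0.00. The part of stromal cell content in the Lama2 difference was not tested, and cell number and RNA per cell cannot be told apart here. Across the 7 pairs the Lama2 ratio had r = 0.84 and rho = 0.71 with that of the fibroblast list (exact permutation p = 0.0153 and 0.0881, adjusted over 47 relations 0.0956 and 0.414), and r = 0.27 without pairs 1 and 8.

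Of the other 10 stromal subunits none met the threshold, with 3 estimates above 0 and 7 below. Lamc3, a minor gamma chain, had the largest negative one after Lama2, -0.34 (95% interval -0.73 to 0.04), and was lower in 6 of 7 pairs. The collagen receptor chains Itga1 and Itga11, the muscle laminin receptor chain Itga7 and the tenascin receptor chain Itga9 were all lower in OE/OE pair 4 than in its littermate, with 618 against 1970 normalized counts for Itga1 and 284 against 1185 for Itga7. Without pair 4 the estimates of Itga1 (-0.08), Itga7 (-0.09), Itga9 (-0.03) and Itga11 (-0.32) became 0.18, 0.24, 0.15 and 0.01, and 6 of the 11 stromal estimates were above 0. In pair 1 Itga1 and Itga7 went the other way, with 2581 against 1670 for Itga1 and 1306 against 656 for Itga7. Endothelial markers followed the same course, with a log2 difference of -1.71 in pair 4 and 0.92 in pair 1. Across the 7 pairs the ratios of Itga1, Itga7 and Itga11 had r = 0.95, 0.95 and 0.92 with the endothelial list. Their rho values were 0.86, 0.86 and 0.82. Without pairs 1 and 4, those farthest from the median difference of that list, r was 0.31, 0.24 and 0.06. Leaving out extreme pairs narrows the range and can lower r by itself. None of these relations had an adjusted p under 0.05 (exact permutation test, Benjamini-Hochberg over 47 relations, lowest 0.0839).

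**Figure D4:**
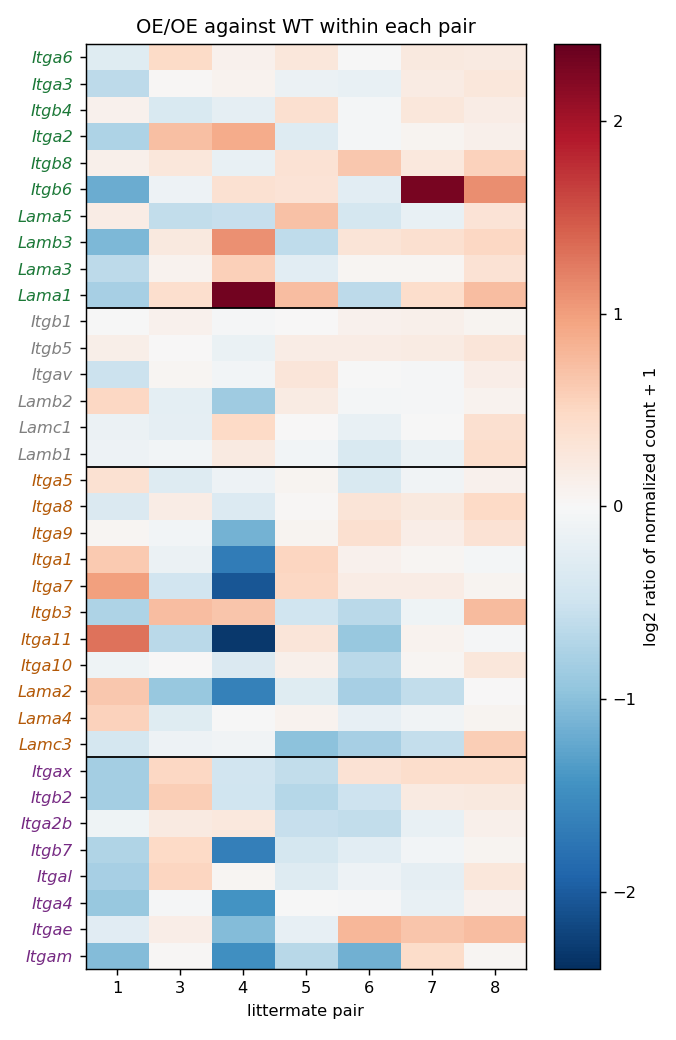
Log2 ratio of OE/OE to WT (normalized count + 1) within each of 7 littermate pairs for integrin and laminin subunits, rows grouped by class and coloured from blue (lower in OE/OE) to red (higher). Leukocyte and platelet subunits were all lower in pairs 1 and 5 and all higher in pair 8, and 10 of 11 stromal subunits were lower in pair 4.

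None of the 8 leukocyte and platelet subunits met the threshold, although 7 had estimates below 0 and 1, Itgae, above it (median -0.16). Itgam, the alpha chain of the complement receptor of macrophages and neutrophils, had the largest one. The gene (ENSMUSG00000030786.18, plus strand of chromosome 7, 128062640 to 128118491 in mm10) is the one whose exons are mostly shared with a read-through gene, Gm49368. It ranged from 25.8 to 52.0 normalized counts in WT (median 49.8) and from 10.6 to 68.0 in OE/OE (median 26.4), where the highest and the lowest mouse of all 14 were both OE/OE. The log2 fold change was -0.55 (SE 0.26, 95% interval -1.13 to 0.04, unadjusted limma p = 0.0638, exact sign-flip p = 0.125), with 4 pairs lower and 3 higher. As few as 11 fragments lay behind a value of Itgam, so its precision was low. Without pair 7 it met the threshold, and without pair 4 the estimate was -0.39.

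Itgb2, the beta chain that joins Itgal, Itgam and Itgax, ranged from 211 to 477 in WT (median 322) and from 175 to 407 in OE/OE (median 260). Its groups overlapped, with a log2 fold change of -0.20 (95% interval -0.61 to 0.20). Itgal, the ICAM receptor chain of lymphocytes, ranged from 132 to 331 in WT (median 241) and from 136 to 296 in OE/OE (median 214), with an estimate of -0.09 (95% interval -0.44 to 0.26). The estimates of Itga4 and Itgb7, which form a homing receptor of lymphocytes, were -0.35 and -0.36, and both had the largest drop in pair 4. Without that pair they were -0.17 and -0.15. Itgae, a chain of tissue-resident lymphocytes that binds E-cadherin, had an estimate of 0.12, and of 0.31 without pair 4. Itgax, the alpha chain of dendritic cells and macrophages, was at -0.03, and Itga2b, the platelet chain, at -0.12.

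The differences of these subunits between OE/OE and WT varied from pair to pair. With 1 mouse per genotype in a pair, litter, mouse and preparation cannot be told apart. All 8 subunits were lower in OE/OE in pair 1 (median -0.80) and in pair 5 (median -0.48), and all 8 were higher in pair 8 (median 0.18). The mean log2 level of the leukocyte list differed by -1.04 in pair 1, by -0.28 in pair 5 and by -0.00 in pair 8. In the pair 1 WT mouse the mean log2 level of that list was 9.80, the highest of the WT mice. One of its 10 genes, Cd53, was called lower in OE/OE (log2 fold change -0.53). Without pair 1 the leukocyte and platelet estimates were 3 above 0 and 5 below, and with the leukocyte score as a covariate also 3 and 5.

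Across the 7 pairs, all 8 subunit ratios had a positive correlation with the leukocyte list, with a median r of 0.47. For Itgax r was 0.82 and rho 1.00 (exact permutation p = 0.000198 and 0.000397, adjusted over 47 relations 0.00933 and 0.0187), and r was 0.85 without pairs 1 and 3. This was the only one of the 47 relations with an adjusted p under 0.05. For Itgb2 r was 0.78 and rho 0.93, and r was 0.77 without those pairs (exact permutation p = 0.0163 and 0.00675, adjusted 0.0956 and 0.159). For Itgal r was 0.88 and rho 0.75, and r was 0.31 without them. Pairs 1 and 3 were those farthest from the median difference of the leukocyte list, so leaving them out narrows its range and can lower r. Points of both axes come from the same 14 libraries.

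**Figure D5:**
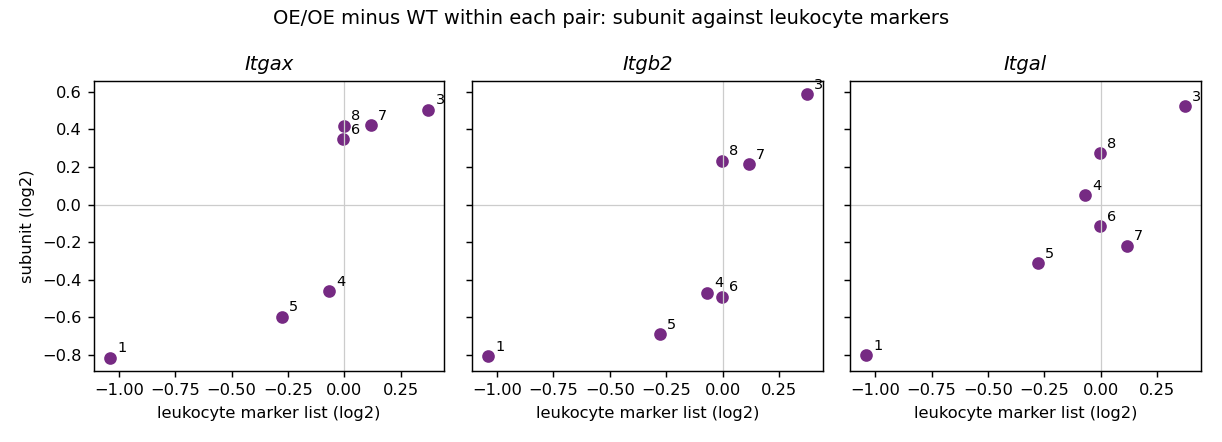
Within-pair log2 difference (OE/OE minus WT) of Itgax, Itgb2 and Itgal (vertical axes) against that of the mean of 10 leukocyte markers (horizontal axes), 1 point per littermate pair with its number. The order of the 7 pairs was the same on both axes for Itgax (rho 1.00).

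Set against Ptprc (CD45), the surface marker of all leukocytes, none of the 8 ratios differed between genotypes by the exact sign-flip test, whose smallest possible p with 7 pairs is 0.0156. The smallest p was that of Itgae, at 0.0781 (adjusted over 8 ratios 0.50), higher relative to Ptprc by 0.36 ± 0.47 (log2, SD, n = 7 pairs) and in 5 of 7. Itgam relative to Ptprc was at -0.31 ± 0.67 (SD, n = 7 pairs). The ratios thus spread over more than their mean.

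The same test was applied to 12 ratios of chains that join in 1 protein, except that Lamb1 over Lamb2 set alternative beta chains against each other. None had a p under 0.05, and the smallest was 0.0938 for Itgax over Itgb2 (exact sign-flip test, adjusted over 12 ratios 0.656), at 0.18 ± 0.31. Itga6 over Itgb4 shifted by 0.10 ± 0.38, Itga6 over Itgb1 by 0.09 ± 0.22 and Itga3 over Itgb1 by -0.11 ± 0.28 (log2, SD, n = 7 pairs). In the laminins Lama5 over Lamc1 shifted by -0.12 ± 0.54 and Lama4 over Lamc1 by -0.02 ± 0.38 (log2, SD, n = 7 pairs). None of the 12 ratios could be told apart from 0.

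Proteins that act with these receptors and ligands were counted from lists. Of 31 linkers between integrins and actin, among them talins, kindlins and focal adhesion kinase, 1 was called higher and none lower (median log2 fold change 0.04). That was Bcar1, the scaffold p130Cas of focal adhesions, whose normalized counts were 6491 ± 1104 in WT mice against 7308 ± 1354 in their littermates (SD, n = 7; log2 fold change 0.17, unadjusted limma p = 0.0483, exact sign-flip p = 0.0469), higher in 6 of 7 pairs. None of 4 other hemidesmosome genes and none of 15 other basement membrane genes was called, with medians of -0.02 and -0.03. Of 9 further matrix ligands Npnt, which encodes nephronectin, the ligand of the Itga8 receptor, was higher (1219 ± 263 against 1493 ± 412, log2 fold change 0.27, unadjusted limma p = 0.0267, exact sign-flip p = 0.0312, n = 7) in 6 of 7 pairs. Postn, which encodes the stromal matrix protein periostin, was lower (36695 ± 12165 against 24008 ± 5759, log2 fold change -0.58, unadjusted limma p = 0.0258, exact sign-flip p = 0.0625, n = 7) in 5 of 7. None of 5 ligands of leukocyte integrins was called. These counts stand beside the 3.81% of all genes called, and none of the 3 genes had an adjusted p under 0.05.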

How the data were processed

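Messenger RNA libraries (TruSeq mRNA) of 14 mice were sequenced, and per the labels the authors aligned the reads to mm10 with TopHat2 2.0.10, counted fragments on GENCODE M21 genes with HTSeq 0.6.0 and divided them by DESeq 1.18.0 size factors. The strand setting of the counting is not given in the sources used here. The deposited values are such a linear, size-factor-scaled signal, and the table holds genes that reached 10 fragments in 7 or more libraries. In every library 100% of the values were whole multiples of 1 fragment (tolerance 0.01), so fragments were recovered. Their totals give the depth and limit precision for low genes only, since the spread between mice was larger. No libraries were alike within counting noise (lowest chi-square per gene 30.3).

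All 16124 genes were fitted with limma 3.58.1 (lmFit, eBayes with trend, R 4.3.3) on log2(normalized count + 1), which understates changes of low genes, with the littermate pair as a block. Labels give the pair numbers, and deviations of littermates from their genotype mean had a median correlation of 0.522 over 7 pairs against -0.151 over 42 other combinations. The threshold was the study's unadjusted p of 0.05. Single members and ratios were tested by exact sign flips (128 patterns), and correlations over pairs by exact permutation (5040 orders). Each r was taken again without the pairs farthest from the median of the marker difference. Alternatives were edgeR 4.0.16 and DESeq2 1.42.0 on recovered fragments, pseudocounts of 0.1 and 10, a mean of at least 50, no trend, median centring, no block, covariates from marker scores, and leaving out each pair. The limma fit was tested on simulated data in which genes varied independently and shared the same dispersion. No shift in cell content was simulated, so that test does not cover such shifts.

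The members, classes and lists were chosen with earlier results of these data known. Values were given in full for members called, for the 3 with the smallest p, and for defining subunits (Itga6, Itgb4, Itgb1, Itga3, Itgb2, Itgam, Itgal, Lama3, Lamb3, Lama5 and Lamc1), and Itgam fell under both of the last 2. The values of 1 member are not reported here, although it is included in the counts. Other members are given by estimates and ranges. Exon lengths, over the merged exons of all transcripts of a gene, and positions came from GENCODE M21. The classes stromal and vascular, and leukocyte and platelet, rest on textbook expression.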

Additional observations from a re-analysis of the deposited data

Results flagged for a closer look

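In 9 of 72 groups of 7 mice, 1 mouse stood far from the others (a gap above Dixon's 95% critical value), where chance gives about 1 in 20, or 3.6. In 6 of them it was the OE/OE mouse of pair 4, at the bottom of its group: Itga1 at 618 normalized counts (nearest 2144), Itga4 at 34.5 (nearest 140), Itga7 at 284 (nearest 918), Itga9 at 872 (nearest 1989), Itgae at 26.9 (nearest 75.5) and Lamb2 at 6673 (nearest 11986). The same mouse had the lowest endothelial marker score of the 14, at 10.5 (log2), and the part of cell content in these values was not tested. WT pair 4 was the lowest WT mouse in Lama1 at 525 (nearest 1121) and Lamc1 at 6191 (nearest 10040). WT pair 5 was the highest WT mouse in Itga2b, the platelet chain, at 744 (nearest 326).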

How the results depend on the processing

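Itgb8 and Lama2 kept their direction under all 20 alternatives. The count of members called was 2, and became 8 with the adipocyte score as a covariate, 0 with the fibroblast score, 1 without trend, 1 with a mean of at least 50, 1 with median centring, 1 with a pseudocount of 0.1 and 7 without pairs 1 and 4 (among them Itgae, Lama2, Itgb5, Itgb8, Itga8 and Itga6; chosen after seeing the data). Leaving out each pair gave 0 (without pair 6) to 3 (without pair 1). Over all genes 614 became 2836 with the adipocyte score, 383 with the fibroblast score and 1805 without pairs 1 and 4, and 381 (without pair 6) to 1366 (without pair 4) with each pair left out, and 1196 without pair 1. DESeq2 gave 626 and edgeR 597. Median centring changed the split from 315 higher and 299 lower to 386 and 245. Without the replicate block the counts were 182 genes and 0 members.

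With the adipocyte score 6 estimates changed sign and met the threshold: Itga1 (0.49), Itga11 (0.56), Itga7 (0.65), Lama3 (-0.28), Lamb2 (0.26) and Lamb3 (-0.43). The sign-flip test counted 1 member, 2 with median centring, and 0 to 2 with each pair left out (2 without pair 4 or 8, 0 without any other), where 6 pairs allow no p below 0.0312. Of the ratios to Ptprc 1 passed with a pseudocount of 10, and of the ratios between chains 0 to 1 (without pair 4) passed with each pair left out. Why these counts moved was not tested. Low counts limit Itgam, Itgae and Itga10 most.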
